A study of Rattus norvegicus with 4 samples.

Results

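The vascular nuclei of the rat ventral tegmental area, that is endothelial cells and the mural cells that wrap them, were 166 of 21606 barcodes in 4 single-nucleus RNA libraries. A nucleus was a member when it held no UMI (unique molecular identifier, 1 counted RNA molecule) of Rbfox3, Pdgfra, Gja1 or Csf1r and at least 3 UMIs of an endothelial score (Flt1, Cldn5, Tek and Adgrl4, with Pecam1 not matched by symbol) or of a mural score (Pdgfrb, Rgs5, Notch3, Atp13a5 and Abcc9). The member was called endothelial when the first score was larger and mural otherwise, which gave 64 endothelial and 102 mural nuclei. The libraries were female 1, female 2, male 1 and male 2, and all values below are listed in that order. All came from experimentally naive Sprague-Dawley rats of 90 to 120 days and 200 to 250 g, and the labels name no transgene and no treatment. The libraries held 3628 to 6955 barcodes and 19714338 to 25824289 UMIs, and the members held 511220 UMIs in all. Each library pooled tissue from 3 rats of 1 sex, 6 rats per sex in all, so the pool was the replicate. The p-values of the gene tests used a spread between pools that was partly or wholly shared across genes. Nuclei had been lysed from frozen tissue, stained with 7-AAD and sorted before droplet capture, so cytoplasmic RNA was mostly outside the measurement.

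Brain endothelial cells line the vessel wall and form the blood-brain barrier: tight junctions seal the gaps between them, solute carriers bring glucose and amino acids across, and ABC transporters pump foreign compounds back into blood. Pericytes are mural cells embedded in the capillary basement membrane, and arterial smooth muscle cells are mural cells with a contractile apparatus that sets vessel tone. Endothelial PDGF-B recruits pericytes through the receptor PDGFRB, and Wnt, VEGF, Notch and TGF-beta signals maintain the barrier and the vessel wall.

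The 250 bases before the annotated start of 4 genes that the results turn on are given here, because they separated the classes: Slco1a4 and Emcn on the endothelial side and Vtn and Kcnj8 on the mural side. They are RefSeq sequences of build GRCr8, 5′ to 3′ on the strand of the gene. Capitals mark AGGAAG or its reverse complement CTTCCT, a core letter pattern of ETS factors such as Erg, and TGGGAA or its reverse complement TTCCCA, the pattern of the Notch partner RBPJ. The Slco1a4 window is chr4:176495847-176496096 on the minus strand, that of Emcn chr2:228564289-228564538 on the plus strand, that of Vtn chr10:63892532-63892781 on the plus strand and that of Kcnj8 chr4:177246549-177246798 on the minus strand.
Slco1a4: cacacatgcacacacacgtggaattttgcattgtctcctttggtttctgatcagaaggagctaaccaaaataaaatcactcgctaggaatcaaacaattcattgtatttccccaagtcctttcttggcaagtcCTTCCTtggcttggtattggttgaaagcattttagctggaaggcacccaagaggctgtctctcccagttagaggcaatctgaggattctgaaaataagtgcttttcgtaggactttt
Emcn: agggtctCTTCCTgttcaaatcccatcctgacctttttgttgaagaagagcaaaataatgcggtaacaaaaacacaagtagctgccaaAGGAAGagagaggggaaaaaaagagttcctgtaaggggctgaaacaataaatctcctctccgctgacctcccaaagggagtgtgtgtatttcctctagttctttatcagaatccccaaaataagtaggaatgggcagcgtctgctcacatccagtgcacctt
Vtn: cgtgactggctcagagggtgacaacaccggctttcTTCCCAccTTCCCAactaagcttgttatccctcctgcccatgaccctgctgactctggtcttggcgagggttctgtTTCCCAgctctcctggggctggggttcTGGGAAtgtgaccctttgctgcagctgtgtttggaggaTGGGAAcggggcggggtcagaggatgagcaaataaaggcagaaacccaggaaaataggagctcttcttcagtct
Kcnj8: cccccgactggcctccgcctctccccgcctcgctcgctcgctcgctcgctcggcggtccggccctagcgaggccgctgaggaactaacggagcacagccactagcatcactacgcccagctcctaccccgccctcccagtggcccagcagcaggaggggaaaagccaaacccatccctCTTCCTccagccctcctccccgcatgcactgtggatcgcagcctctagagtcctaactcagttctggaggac

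The ETS letters were found once in the Slco1a4 window, 2 times in Emcn and once in Kcnj8, and the RBPJ letters 5 times in Vtn, counted on both strands. Of 33469 promoter windows of that length, 29.5% held the first pattern and 22.1% the second. Among the 12 genes the naming rule gave on each side, 6 had a window in the table, and the ETS letters were in 2 endothelial windows (Emcn, Slco1a4) and 2 mural windows (Arhgap42, Kcnj8). The RBPJ letters were in 1 endothelial window (Agbl1) and 2 mural windows (Lama2, Vtn). These matches describe letters and are not sites.

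The gate did not select vascular nuclei alone. Of the 166 members, 29 held as many or more UMIs of 5 neuron genes, or of 5 oligodendrocyte genes, as of both gate scores together (25 by neuron genes, 7 by oligodendrocyte genes, 3 by both). These 29 were deep, with a median of 9733 UMIs (2969 to 20232) against 1152 in the 137 kept nuclei and 2982 in all other barcodes, and they held 58.6% of all member UMIs (69.0%, 64.1%, 70.7% and 36.9%). The comparisons below were therefore run for all members and for the 137 kept nuclei, 52 endothelial and 85 mural. Since the condition uses Snap25, Syt1, Stmn2, Syp, Celf4, Mog, Mag, Mobp, Opalin and Hapln2, the low level of these genes among kept nuclei is partly set by it. Of the 16 members at the threshold of 3 UMIs, 1 was kept and their median depth was 9095.5 UMIs. Just outside, at a score of 2, 73 barcodes had a median of 7707 UMIs and 9 met the condition, while at 20 or more UMIs 57 of 58 members were kept. Before the exclusion genes were used, 227 barcodes reached the threshold of 3 UMIs. The exclusion genes removed 61 of them, 51 with a Gja1 UMI, and these were counted with the other barcodes. Whether they were vascular was not tested.

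**Figure D1:**
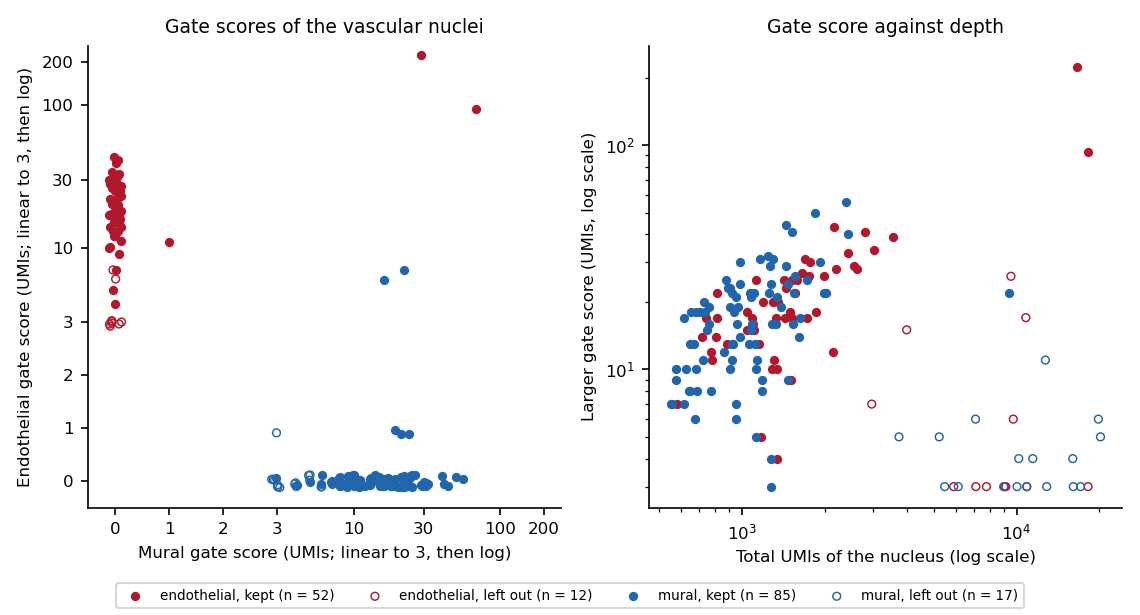
Left, endothelial against mural gate score of each of the 166 members in UMIs (axes linear to 3 and then logarithmic, points shifted slightly at random so that they do not hide each other). Right, the larger score against the total UMIs of the nucleus on log axes. Filled points are the 137 kept nuclei and open points the 29 left out, which lie mostly at low scores, at 2969 to 20232 UMIs.

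The members were chosen by the UMI counts of the gate genes, so the levels of those genes are given as a description with no test. They are in CPM, the UMIs of a gene over all UMIs of the summed nuclei of a class in a library, on the usual CPM scale. In kept endothelial nuclei the VEGF receptor gene Flt1 stood at 5200, 4318, 3456 and 4680 CPM and the tight junction gene Cldn5 at 6744, 4121, 3111 and 5736 CPM. In kept mural nuclei the PDGF receptor gene Pdgfrb stood at 2716, 2726, 1510 and 1792 CPM and the G-protein regulator gene Rgs5 at 2328, 4454, 3117 and 1880 CPM. The scores rarely mixed: 61 of 64 endothelial nuclei had a mural score of 0, and 96 of 102 mural nuclei had an endothelial score of 0. The 4 members with both scores at 3 or more were 2 in male 1 and 2 in male 2. The larger in male 1, counted as endothelial with 18167 UMIs, held scores of 93 and 68 and 4252 haemoglobin UMIs and was also a doublet call. It gave 69.8% of the 26039 UMIs of the kept endothelial nuclei of male 1, and the endothelial mixed nucleus of male 2 gave 29.3% of the 56833 there, so every endothelial level of male 1 printed below rests mostly on 1 nucleus. Without it, male 1 has 4 kept endothelial nuclei, in which Cldn5 stood at 6606 CPM and Flt1 at 5462 CPM. Of the 166 members, 9 were doublet calls, 6 of them among kept nuclei. No barcode sequence of a member was found in another library.

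Markers that the gate did not use gave a check of the label. Of 14 endothelial markers, 13 were detected, and they summed to 14939 to 22506 CPM in kept endothelial nuclei, 399 to 1315 CPM in kept mural nuclei and 104 to 119 CPM in other barcodes. All 52 kept endothelial nuclei held a UMI of these markers, against 60 of all 64. The 12 pericyte markers summed to 10573 to 16023 CPM in kept mural nuclei, 2617 to 3341 CPM in kept endothelial nuclei and 246 to 279 CPM in other barcodes, and all 85 kept mural nuclei held at least 1 such UMI. The lists were not exclusive by nucleus: 41 of 52 kept endothelial nuclei also held a pericyte marker UMI, and 41 of 85 kept mural nuclei an endothelial marker UMI. Most of the pericyte sum in kept endothelial nuclei was 1 gene, Ebf1. In female 1 and female 2, which had no mixed nucleus, it stood at 3169 and 2486 CPM of list sums of 3250 and 2617 CPM. The smooth muscle list summed to 88.5 to 341 CPM in kept mural nuclei against 39.2 to 53.9 CPM in other barcodes, with 7 of its 10 genes at 0 in kept mural nuclei, and the defining genes Acta2, Des, Actg2 and Kcnmb1 had no UMI in any of the 166 members. Fibroblast markers summed to 1067 to 1330 CPM in kept mural nuclei, with 6 of 9 detected, against 70.3 to 85.2 CPM in other barcodes and 0 to 70.4 CPM in kept endothelial nuclei.

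Vascular nuclei were 0.681% (95% Wilson interval 0.501% to 0.926%), 0.524% (0.361% to 0.762%), 0.799% (0.557% to 1.15%) and 1.01% (0.797% to 1.27%) of the barcodes. Both male libraries lay above both female ones, with a mean of 0.603% ± 0.111 in females and 0.903% ± 0.146 in males (SD, n = 2 each). The 2-sided exact permutation p was 0.333, which is the smallest that 2 against 2 libraries allow. In kept nuclei the shares were 0.545%, 0.408%, 0.579% and 0.906%, with the same exact permutation p of 0.333. Among barcodes of at least 2000 UMIs the means were 0.254% and 0.326%, a female minus male difference of -0.0711 percentage points in place of -0.30. That difference was -0.197 without male 2 and -0.549 with the gate at 2 UMIs. Mural nuclei were 65.0%, 55.6%, 75.9% and 55.7% of the members, so the sexes overlapped (exact permutation p = 0.667). The intervals cover counting error only, and the shares leave out the barcodes that the exclusion genes removed.

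**Figure D2:**
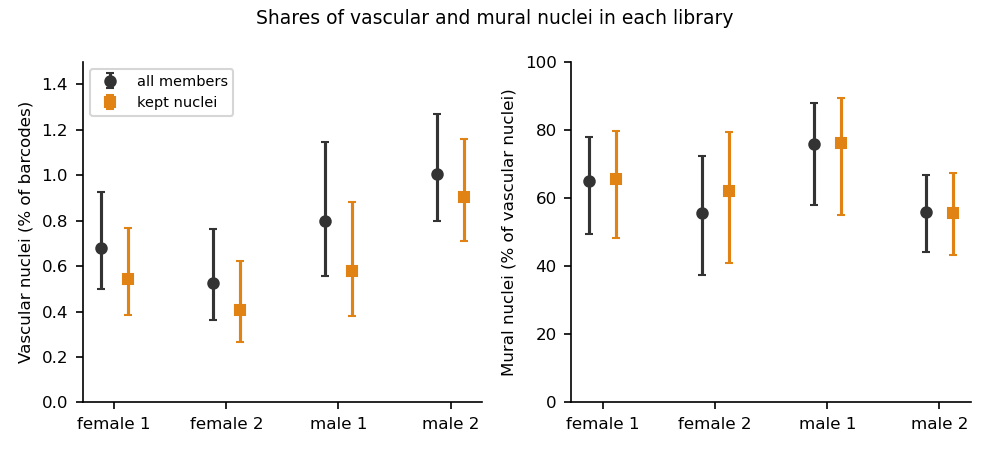
Share of vascular nuclei among barcodes (left) and of mural nuclei among vascular nuclei (right) in percent for each library, with 95% Wilson intervals as bars. Circles are all 166 members and squares the 137 kept nuclei, and male 2 has the highest vascular share in both (1.01% and 0.906%).

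The first comparison asked which genes were higher or lower in the summed vascular nuclei than in all other barcodes. Of 14258 genes tested with edgeR's quasi-likelihood test with the library as a block, 911 were higher (6.39% of genes tested) and 989 lower (6.94%) at a Benjamini-Hochberg adjusted p under 0.05. In kept nuclei 1121 of 14131 were higher (7.93%) and 2737 lower (19.4%), and the median over all genes moved from -0.15 to -0.79 on the log2 scale, so a fold below is read against that median. Scaling each nucleus to its expected counts at 1000 UMIs and leaving out shallower ones (52 of 166 members, 43 of them mural) gave 671 higher (6.04% of 11118 tested) and 1292 lower (11.6%). The calls over all members were 1900 (13.3%) and without male 2 they were 1226. With DESeq2 63.1% of calls were higher, against 47.9% with edgeR, and 29.1% in the kept nuclei (3858 calls, 27.3%). The Benjamini-Hochberg adjusted p of each gene named as higher below stayed under 0.05 in the kept nuclei, except where its value there is given as not passing. List counts below are read against 6.39% higher and 6.94% lower over all members, and 7.93% and 19.4% in kept nuclei.

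Of the 15 genes with the largest increases, several are known from pericytes. A gene scarce in other barcodes passed the edgeR filter on low counts through the vascular sums alone, so its call follows from the filter. Kcnj8 was such a gene, and how many others of the 15 were was not counted. Vtn, which encodes the matrix protein vitronectin, stood at 3880, 2460, 4237 and 2477 CPM in kept mural nuclei and at 1.68, 0.735, 1.02 and 1.32 CPM in other barcodes, and no library of the first overlapped the second. Its log2 fold change in all members was 9.0 ± 0.28 (SE) and in kept nuclei 10.02 ± 0.37. Kcnj8, the pore subunit of a pericyte ATP-sensitive potassium channel whose partner Abcc9 is a gate gene, stood at 1601, 465, 1899 and 752 CPM in kept mural nuclei and 0.187, 0.230, 0.153 and 0.312 CPM in the libraries of other barcodes, with a log2 fold change of 9.71 ± 0.41. The small GTPase gene Rem1 gave the largest fold of the genes named by the rule (log2 10.17 ± 0.63) at 437, 731, 633 and 509 CPM in kept mural nuclei. Higd1b (8.65 ± 0.64), the chemokine gene Ccl19 (8.57 ± 0.80) and the forkhead factor gene Foxc1 (8.68 ± 0.70) were rare transcripts, and the first stood at 243, 199, 682 and 265 CPM in kept mural nuclei. Foxc1 was found in both classes, and its endothelial minus mural log2 difference in kept nuclei was -0.29 ± 0.68, which did not pass.

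Others of the 15 were endothelial. Cyyr1, a membrane protein gene, stood at 4062, 3860, 2496 and 3642 CPM in kept endothelial nuclei and at 1.26, 1.06, 1.23 and 1.71 CPM in other barcodes (log2 fold change 8.93 ± 0.28 over all members). The transcription factor genes Sox17 (1056, 196, 346 and 528 CPM) and Sox18 (406, 262, 154 and 282 CPM), which specify endothelial identity, had no UMI in kept mural nuclei. The sialomucin gene Emcn stood at 731, 458, 499 and 457 CPM in kept endothelial nuclei, again with none in mural nuclei. Car4, a carbonic anhydrase on the capillary surface, and Akr1c15, an aldo-keto reductase, rose by 8.12 ± 0.28 and 9.32 ± 0.35 on the log2 scale. Slc22a8, an organic anion transporter, and Ifitm3, an antiviral membrane protein, were high in both classes: Slc22a8 stood at 812, 327, 499 and 598 CPM in kept endothelial and 631, 465, 1071 and 487 CPM in kept mural nuclei. Slc6a13, a GABA and taurine transporter often listed for fibroblasts, stood at 679, 864, 633 and 553 CPM in kept mural nuclei.

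The largest decreases were mostly genes known from astrocytes and the oligodendrocyte lineage. The exclusion genes Gja1 and Pdgfra remove astrocytes and oligodendrocyte precursors by design, but no exclusion gene marks mature oligodendrocytes. Sox6 and Gpr37l1 had no UMI in the 166 members, at least 73.8-fold and 18.1-fold lower than in other barcodes against a floor of 3 counts over the members (30.6-fold and 7.51-fold in kept nuclei). Itih3 (-5.38 ± 0.52), C1ql1 (-4.89 ± 0.56), Slc6a11 (-4.38 ± 0.45), Agt (-4.20 ± 0.35), Cmtm5 (-3.85 ± 0.41) and Slc4a4 (-3.80 ± 0.29) followed on the log2 scale over all members. In kept nuclei the log2 fold changes were -4.49 ± 0.68 for Itih3, -3.83 ± 0.48 for Agt, -4.49 ± 0.67 for Cmtm5 and -6.50 ± 0.59 for Slc4a4, each called lower by edgeR. C1ql1 and Slc6a11 had no UMI there, at least 7.54-fold and 10.8-fold lower.

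Most transport genes of the barrier were called higher. Of 20 solute carrier genes tested, 18 were higher and none lower, with a median log2 fold change of 3.33 against -0.15 over all genes, and 17 of 19 were higher in kept nuclei. Slc2a1, the glucose transporter GLUT1, stood at 4062, 3467, 2611 and 3326 CPM in kept endothelial nuclei, 48.5, 0, 97.4 and 22.1 CPM in kept mural nuclei and 54.4, 51.9, 47.2 and 52.8 CPM in other barcodes, so that the endothelial libraries lay far above both. Without the mixed nucleus male 1 stood at 5081 CPM. The fold over all members was 3.60 ± 0.22 on the log2 scale. The cationic amino acid carrier Slc7a1 (3494, 3271, 1383 and 2305 CPM), the large neutral amino acid carrier Slc7a5 (1300, 785, 883 and 1056 CPM) and the zinc importer Slc39a10 (1137, 2159, 1421 and 1865 CPM) followed in kept endothelial nuclei. The lysophospholipid carrier Mfsd2a, a defining barrier gene, did not pass over all members (0.93 ± 0.35, edgeR adjusted p = 0.055) and passed in kept nuclei (1.60 ± 0.42, adjusted p = 0.0011). The nucleoside carrier Slc29a1 was called higher over all members (1.33 ± 0.35) but stood at -1.31 ± 0.84 in kept nuclei, where the edgeR adjusted p was 0.26.

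Of 7 efflux transporter genes, 4 were higher and 1 lower (4 and 2 in kept nuclei). Abcb1a, which encodes P-glycoprotein, stood at 3087, 5168, 2803 and 2111 CPM in kept endothelial nuclei (male 1 without the mixed nucleus 7114 CPM) and at 0, 0, 48.7 and 0 CPM in kept mural nuclei. Abcg2 stood at 1950, 1047, 999 and 827 CPM against 1.17, 1.29, 0.972 and 1.60 CPM in other barcodes. Abcc4 stood at 1300, 1243, 1383 and 827 CPM with no UMI in kept mural nuclei, at least 36.1-fold lower there. Abcc1 did not pass (0.11 ± 0.24). Of 10 receptor genes for proteins and lipids carried in blood, 6 were higher and none lower, and in kept nuclei 6 were higher and 1 lower. They included the transferrin receptor Tfrc (1869, 3206, 1267 and 1320 CPM in kept endothelial nuclei), Igf1r (4306, 6607, 3648 and 2956 CPM), Insr (406, 1047, 384 and 528 CPM) and Bsg, a barrier glycoprotein (10644, 8439, 6759 and 13566 CPM).

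Of 19 junction genes, 6 were higher and 2 lower over all members, against 6.39% and 6.94% of all genes. In kept nuclei 10 were higher and 2 lower, against 7.93% and 19.4% of all genes. Occludin (Ocln) stood at 812, 262, 307 and 229 CPM, the tricellular junction gene Lsr at 569, 393, 269 and 299 CPM, and vascular cadherin (Cdh5) at 406, 393, 192 and 264 CPM in kept endothelial nuclei, with Lsr and Cdh5 at 0 in kept mural nuclei. Esam, an adhesion molecule, was high in both classes, at 1544, 589, 307 and 616 CPM in endothelial and 679, 864, 633 and 487 CPM in mural nuclei. The scaffold gene Tjp1 stood at 0.29 ± 0.22 over all members and passed in kept nuclei (0.81 ± 0.28, edgeR adjusted p = 0.015). The call of Jam3 as lower was absent in kept nuclei, where its log2 fold change was -0.21 ± 0.32.

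Of 18 endothelial transcription factor genes tested, 15 were higher and none lower (14 in kept nuclei). The ETS factor Erg stood at 406, 131, 269 and 475 CPM in kept endothelial nuclei and at 0 in kept mural nuclei, while Ets1 was found in both, at 325, 262, 115 and 282 CPM and 388, 997, 341 and 442 CPM. The hypoxia factor gene Epas1 stood at 1625, 916, 1843 and 1320 CPM in endothelial and 437, 465, 682 and 531 CPM in mural nuclei. Of 16 Wnt and barrier transcription genes, 8 were higher (13 in kept nuclei), led by Lef1, the nuclear partner of beta-catenin, at 2844, 2944, 1536 and 1724 CPM in kept endothelial nuclei against 8.27, 5.97, 12.2 and 6.12 CPM in other barcodes. Of 14 VEGF and angiopoietin genes, 5 were higher and 1 lower (4 and 2 of 13 in kept nuclei, against 7.93% and 19.4% of all genes): the receptor Kdr stood at 325, 327, 269 and 387 CPM, the phosphatase Ptprb at 2356, 1047, 768 and 616 CPM and the receptor Tie1 at 81.2, 393, 192 and 422 CPM in kept endothelial nuclei. The ligand Vegfa fell by 1.66 on the log2 scale (SE 0.30).

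Of 20 TGF-beta and BMP genes, 9 were higher and none lower in both sets, among them the co-receptor Eng (1300, 589, 346 and 545 CPM in kept endothelial nuclei) and the BMP target Id1 (975, 458, 922 and 1425 CPM). Of 12 Notch genes, 7 were higher and none lower in both sets: Notch1 stood at 1261, 665, 584 and 398 CPM in kept mural nuclei and at 81.2, 65.4, 154 and 352 CPM in kept endothelial nuclei, and the mural target Heyl stood at 340, 399, 146 and 332 CPM in kept mural nuclei. Of 13 PDGF and pericyte recruitment genes, 6 were higher and none lower, and in kept nuclei 7 were higher and 2 lower. The ligand Pdgfb was found at 162, 262, 269 and 158 CPM in kept endothelial nuclei and at 0 in kept mural nuclei, at least 6.73-fold lower there, while its receptor Pdgfrb was a gate gene of the mural side. The proteoglycan gene Cspg4 (NG2) stood at 922, 465, 925 and 531 CPM in kept mural nuclei, and the sphingolipid receptor S1pr3 at 194, 133, 292 and 243 CPM.

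Basement membrane and matrix genes rose in both classes, 16 of 23 higher and none lower (20 in kept nuclei), with a median log2 fold change of 2.12. Col4a1, a chain of type IV collagen, stood at 487, 196, 192 and 264 CPM in kept endothelial and 194, 199, 438 and 288 CPM in kept mural nuclei. Lamb2 stood at 569, 327, 230 and 282 CPM and 243, 199, 195 and 177 CPM. The laminin gene Lamc3 lay on the mural side, at 970, 1330, 584 and 575 CPM in kept mural nuclei against 0, 0, 38.4 and 52.8 CPM in kept endothelial nuclei, as did the linker gene Nid1 (1067, 997, 438 and 487 CPM) and Col18a1 (485, 798, 244 and 420 CPM).

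Of 24 genes of contraction and vessel tone, 13 were higher and 4 lower over all members, 14 and 5 in kept nuclei. The actin-binding gene Cald1 stood at 1019, 1263, 1558 and 1217 CPM in kept mural nuclei against 48.6, 50.2, 39.2 and 42.0 CPM in other barcodes. The subunits of the nitric oxide receptor, Gucy1a1 (194, 798, 536 and 730 CPM) and Gucy1b1 (631, 997, 633 and 288 CPM), the cyclic GMP phosphodiesterase Pde5a (291, 1130, 487 and 376 CPM) and the endothelin receptor Ednra (340, 532, 584 and 288 CPM) were all called higher. The calcium channel gene Cacna1c (243, 798, 390 and 442 CPM) and the kinase gene Mylk (243, 332, 244 and 221 CPM) were too. Myl9 was the 1 smooth muscle marker called higher, at 97.0, 66.5, 292 and 66.4 CPM in kept mural nuclei. The 4 lower genes were Dgkb, Ryr2, Lmod1 and Trpc6, of which Lmod1 and Trpc6 had no UMI in kept nuclei.

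**Figure D3:**
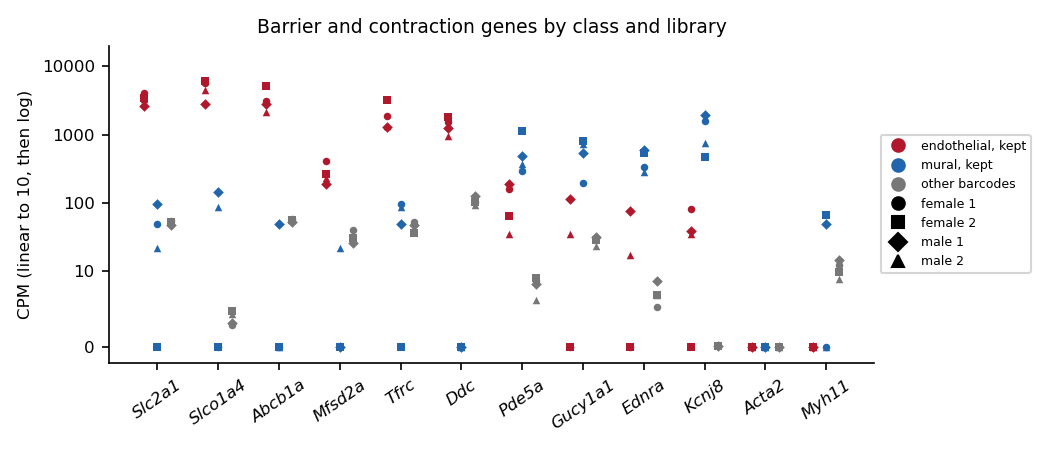
CPM (linear to 10 and then logarithmic) of barrier and contraction genes in kept endothelial nuclei, kept mural nuclei and other barcodes, with 1 marker shape for each library. Slc2a1, Slco1a4, Abcb1a, Mfsd2a, Tfrc and Ddc are high in endothelial nuclei, Pde5a, Gucy1a1, Ednra and Kcnj8 in mural nuclei, and Acta2 is at 0 in both vascular classes.

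The direct comparison of endothelial with mural nuclei within libraries tested 1361 genes over all members and called 153 (11.2%), of which 104 were higher in endothelial nuclei (7.64% of genes tested) and 49 higher in mural nuclei (3.6%). In the kept nuclei, with genes required to reach 20 UMIs over both classes, 2521 genes were tested, 631 were called (25%), 371 were higher in endothelial (14.7%) and 260 higher in mural nuclei (10.3%). That last combination was chosen after seeing the data, since the edgeR filter left 223 genes for kept nuclei. In that fit the spread was taken as common to all genes, so its p-values do not measure the spread of each gene between pools. Calls rested much on male 2, which held 31 of 64 endothelial nuclei: without it 60 genes were called in place of 153, against 258 without female 2.

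The endothelial side was led by transporters and by genes with no mural UMI. The organic anion transporter Slco1a4 stood at 5606, 6019, 2765 and 4504 CPM in kept endothelial (5462 CPM in male 1 without the mixed nucleus) and 0, 0, 146 and 88.5 CPM in kept mural nuclei, and it was found in all 52 kept endothelial nuclei, 4 of 85 kept mural nuclei and 1.37% of other barcodes. Its log2 difference was 6.56 ± 0.64 over all members (edgeR adjusted p = 6.2e-05) and 6.13 ± 0.57 in kept nuclei. The thyroid hormone transporter Slco1c1 stood at 5525, 3860, 2458 and 2604 CPM against 0, 0, 48.7 and 44.2 CPM. Von Willebrand factor (Vwf), a clotting protein, stood at 1544, 916, 1075 and 1056 CPM, and none was found in kept mural nuclei, which puts it at least 37.0-fold lower there.

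Over all members the mural sum held no UMI of the decoy receptor gene Tnfrsf11b, Wfdc1, the glutamine carrier gene Slc38a3 or Emcn, at least 46.6-fold, 42.5-fold, 36.6-fold and 27.0-fold lower than the endothelial sum (29.7-fold, 25.7-fold, 22.9-fold and 16.8-fold in kept nuclei). Genes with no mural UMI passed the filter through the endothelial class alone, so the calls of these genes follow from the filter. Fibronectin (Fn1, 1056, 589, 346 and 915 CPM) and the adhesion receptor Adgrf5 (1381, 1308, 883 and 1214 CPM) were also on this side. The carboxypeptidase gene Agbl1 ranged widely between libraries, at 731, 5037, 1306 and 3431 CPM in kept endothelial nuclei (4192 CPM in male 1 without the mixed nucleus), with at most 22.1 CPM in a kept mural library. Cyyr1 (7.83 ± 0.73) and Akr1c15 (7.15 ± 0.64) complete the 12 genes of the rule on the log2 scale over all members.

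The mural side was led by signalling, channel and matrix genes. The amino acid carrier Slc6a20 stood at 3832, 2260, 2533 and 1725 CPM in kept mural nuclei against 0, 65.4, 192 and 17.6 CPM in kept endothelial nuclei, with a log2 difference of -4.55 ± 0.71 over all members and -4.91 ± 0.56 in kept nuclei. Without the mixed nuclei its endothelial levels were 0, 65.4, 0 and 0 CPM. The phospholipase gene Plce1 (1940, 1130, 1169 and 1438 CPM), the gap junction gene Gjc1 (1213, 1197, 1461 and 1305 CPM) and the GTPase-activating protein gene Arhgap42 (1019, 1529, 1169 and 929 CPM) were called in both fits. So were the membrane scaffold Sntb1 (776, 2194, 974 and 907 CPM) and the parathyroid hormone receptor Pth1r (1164, 465, 1218 and 686 CPM).

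For some mural genes the endothelial level came from the nuclei with both scores high. The laminin gene Lama2 stood at 2910, 2260, 2727 and 2499 CPM in kept mural nuclei and at 0, 0, 499 and 0 CPM in kept endothelial nuclei, and all 13 of its UMIs in the latter lay in the male 1 nucleus of 18167 UMIs. Vtn had 19 of its 30 kept endothelial UMIs there and the other 11 in the male 2 nucleus of 16668 UMIs. Without the nuclei whose scores were both high, Lama2, Vtn and the pericyte marker Higd1b had no UMI in kept endothelial nuclei.

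**Figure D4:**
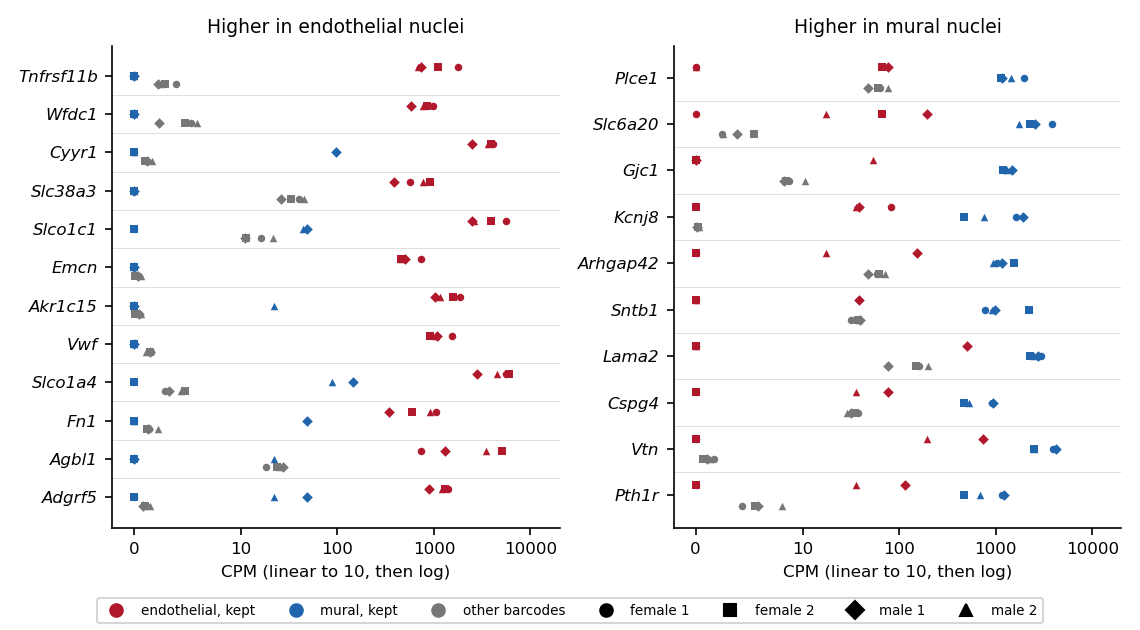
CPM (linear to 10 and then logarithmic) of the genes named here from the endothelial against mural comparison (12 on the endothelial and 10 on the mural side), in kept endothelial nuclei, kept mural nuclei and other barcodes, with 1 marker shape for each library. The vascular classes lie apart in each panel, and in male 1 the endothelial points of Lama2 and Vtn lie at 499 and 730 CPM.

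The lists were also counted between the kept classes, as a description. Higher in endothelial nuclei were 13 of 13 endothelial markers, 13 of 14 solute carriers (Slc22a8 stood at -0.06 ± 0.44), 3 of 6 efflux transporters, 9 of 14 junction genes, 6 of 8 receptors, 8 of 12 endothelial transcription factors, 4 of 5 VEGF and angiopoietin genes and 4 of 9 TGF-beta and BMP genes. Higher in mural nuclei were 10 of 11 pericyte markers (Higd1b stood at -1.10 ± 0.59), 12 of 14 contraction and tone genes, 6 of 17 matrix genes (1 was higher in endothelial nuclei), 2 of 4 Notch genes (Notch1 and Heyl), and 2 of 14 junction genes and 2 of 8 receptor genes (Lrp1 and Ager). Outside the mixed nuclei Higd1b had no UMI in kept endothelial nuclei. Tpm1, a tropomyosin gene, was the 1 contraction gene higher in endothelial nuclei, at 894, 589, 384 and 352 CPM against 146, 66.5, 244 and 66.4 CPM. Of 11 Wnt genes, Lef1 and Fzd6 were higher in endothelial nuclei and none in mural nuclei. All of these shares stand beside 14.7% and 10.3% of genes called in each direction. Of 8 PDGF and pericyte recruitment genes, 3 were higher in mural and 2 in endothelial nuclei, and adhesion and immune genes went both ways (5 and 1 of 8). Genes with no UMI in kept mural nuclei passed the filter through the endothelial class alone, so their calls follow from the filter. They included 6 of the 13 endothelial markers, 4 of the 12 transcription factors, 3 of the 5 VEGF genes and 2 of the 14 solute carriers. Also among them were 2 of the 14 junction genes, 1 of the 6 efflux transporters and both PDGF genes called endothelial, Pdgfb and Pdgfd. On the mural side the same holds for 1 of the 11 pericyte markers, which had no UMI in kept endothelial nuclei. The lists were chosen with these classes in view and are a check of the label, not independent evidence.

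**Figure D5:**
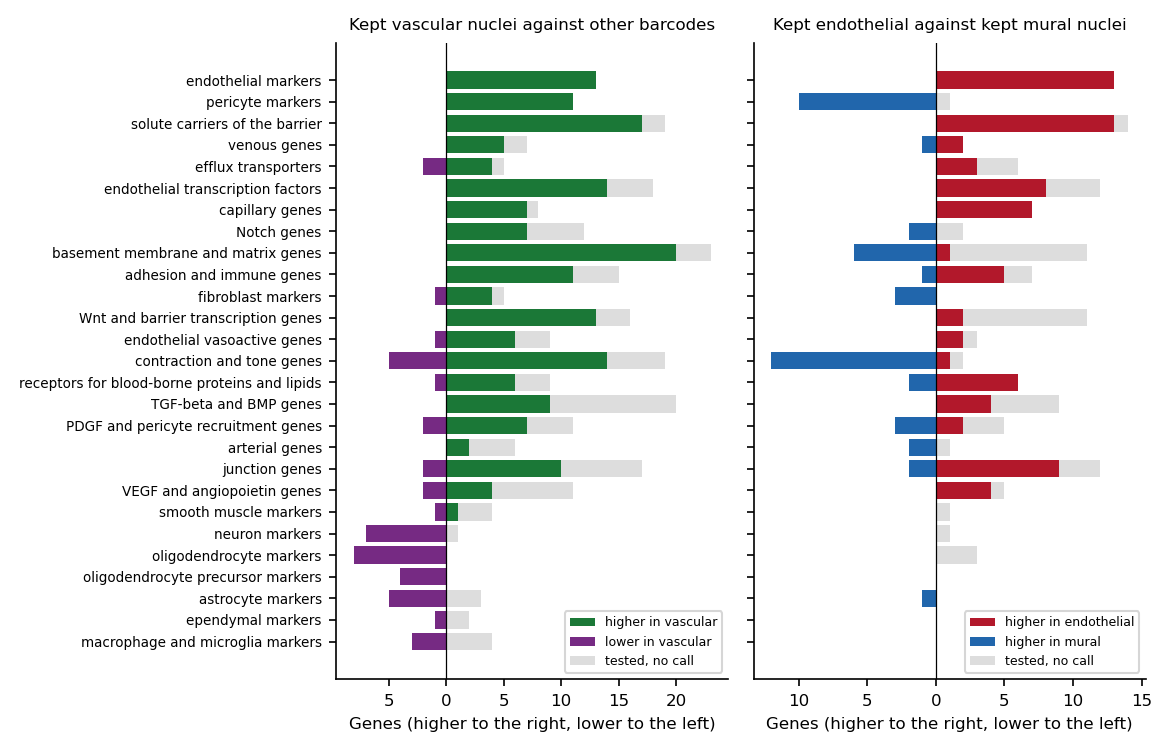
Number of genes of each list called higher (right of 0) or lower (left of 0), with grey for genes tested and not called, in kept vascular nuclei against other barcodes (left) and kept endothelial against kept mural nuclei (right). In the right panel solute carriers and endothelial markers point to the endothelial side (13 of 14 and 13 of 13) and contraction and pericyte genes to the mural side (12 of 14 and 10 of 11).

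Genes known to differ along the vessel tree were compared between the kept classes, where 7 capillary, 3 venous and 3 arterial genes could be tested. All 7 capillary genes were higher in endothelial than in mural nuclei, among them the carbonic anhydrase gene Car4 (1219, 1439, 730 and 1724 CPM), the chemokine gene Cxcl12 (894, 1047, 1229 and 1408 CPM, with 0 in male 1 without the mixed nucleus) and Rgcc, a cell cycle regulator (487, 589, 384 and 510 CPM). Of the venous genes, Vwf and the carrier Slc38a5 were higher in endothelial nuclei, and the transcription factor gene Nr2f2 was higher in mural nuclei (485, 864, 390 and 553 CPM). Vwf and Slc38a5 had no UMI in kept mural nuclei, so their calls follow from the filter. The same holds for 1 of the 7 capillary genes. Of the arterial genes, Mgp, a matrix calcification inhibitor (2959, 2925, 3117 and 2345 CPM), and the connexin gene Gja4 (437, 266, 195 and 265 CPM) were higher in mural nuclei, while Bmx, Hey1, Gkn3 and Gja5 had no UMI in kept nuclei. Among 52 kept endothelial nuclei, 51 held a capillary UMI, 41 a venous UMI and 19 an arterial UMI, and 14 held both of the last kinds, so these lists did not divide single nuclei at this depth.

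Of 15 adhesion and immune genes, 10 were higher in vascular nuclei and none lower, and 11 and none in kept nuclei, against 6.39% and 7.93% of all genes higher. The antigen presentation gene B2m stood at 5606, 3729, 3956 and 6968 CPM in kept endothelial nuclei, 534, 266, 1364 and 597 CPM in kept mural nuclei and 113, 89.6, 101 and 123 CPM in other barcodes, with a log2 difference between the classes of 3.11 ± 0.45. The interleukin-1 receptor gene Il1r1 stood at 731, 720, 461 and 739 CPM and the adhesion gene Icam2 at 731, 393, 269 and 598 CPM in kept endothelial nuclei. The activation genes Sele and Selp and the fenestral diaphragm gene Plvap had no UMI in kept nuclei, and Icam1 had none in kept endothelial nuclei. With 110466 UMIs in the kept endothelial sum, a count of 0 allows up to 27.2 CPM. The nitric oxide synthase gene Nos3 stood at 569, 196, 38.4 and 211 CPM in kept endothelial nuclei and the caveolin gene Cav1 at 569, 131, 269 and 387 CPM.

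Markers of other cell types were measured beside these results. The 8 neuron markers summed to 2109 to 4080 CPM over all members, 64.4 to 516 CPM in kept nuclei and 2689 to 3472 CPM in other barcodes, and none of the 8 was called over all members. Oligodendrocyte markers summed to 1889 to 4101 CPM over all members, 344 to 3402 CPM in kept nuclei (highest in female 1) and 10725 to 11895 CPM in other barcodes, with 8 of 8 lower. Astrocyte markers summed to 126 to 210 CPM (129 to 395 CPM in kept nuclei) against 963 to 1967 CPM, and microglial and macrophage markers to 0 to 18.6 CPM against 132 to 163 CPM. Microglial genes Ptprc and C1qa had no UMI in any member. The part of these levels in the results was not tested.

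The female and male pools were told apart by their Y-linked genes within the vascular nuclei. Kdm5d had 0, 0, 17 and 16 UMIs, Eif2s3y 0, 0, 10 and 23 UMIs and the gene listed as Ddx3 0, 0, 16 and 23 UMIs, so each library matched its label. Among 3595 genes tested in vascular nuclei by sex, edgeR called 0 (0%) and DESeq2 called 0, with 234 and 71 genes at an unadjusted p under 0.05. In endothelial nuclei 0 of 1158 were called by each tool, with 97 and 38 at an unadjusted p under 0.05. Ddx3 and Kdm5d stood at -6.99 ± 1.25 and -6.75 ± 1.34 (female minus male, log2) with edgeR adjusted p = 0.52 for both. In simulated data of the same size the vascular test recovered 36.8% of genes changed by 1 on the log2 scale and 99.1% of those changed by 2. The simulation used a fixed spread common to all genes and changed only genes with more UMIs. That spread was not taken from the pools, so these shares do not give the power of the sex tests. With 1 library left out in turn, edgeR called 16 (without female 1) to 42 (without male 1) vascular genes and 0 to 20 endothelial genes. Such a fit has 1 library on 1 side, so its spread comes from the other sex alone and the lone library is assumed to vary like it. In kept nuclei edgeR called 0 of 723 vascular and 11 of 282 endothelial genes.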

How the data were processed

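UMI counts per gene and barcode were used as deposited by the authors, as 1 filtered matrix per library with 32883 features. The submitters' processing notes name Cell Ranger and genome build rn6, and software version 3.0.2 stands in the matrices per the file headers. No source used here states the annotation. Members were found from raw counts, and counts were summed per library and class. The 14 gate and exclusion genes (13 matched by symbol) stayed in the totals behind the CPM values. They were removed before the tests and before the library sizes of the tests were taken. Sums were compared with edgeR 4.0.16 in R 4.3.3 (quasi-likelihood test, TMM, filterByExpr, Benjamini-Hochberg adjustment over all genes tested), with the library as a block except by sex. DESeq2 1.42.0 was an alternative. A log2 fold change is given with its SE, the absolute value over the square root of F. Shares were tested by exact permutation in scipy 1.17.1.

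Doublets were called with Scrublet in scanpy 1.11.5 (expected 0.8% per 1000 barcodes) and kept except in an alternative. Genes were named by a rule: adjusted p under 0.05, the same direction in 4 libraries and at least 20 UMIs, then the 15 largest increases and 8 largest decreases against other barcodes, 12 on each side between the classes, and list members led by the called gene with most UMIs. The members, lists and rule were chosen with earlier results of these data known. In simulated data the vascular test recovered 54.4% of genes changed by 1 on the log2 scale and 89.1% of those changed by 2 (14242 genes). The test between the classes recovered 63% and 81% (1412 genes). All simulations used a fixed spread common to all genes, not taken from the pools, and changed only genes with more UMIs. Some genes that this rule gives are not reported here.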

Additional observations from a re-analysis of the deposited data

Results flagged for a closer look

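In all 64 endothelial nuclei, Cyyr1 stood at 2726 CPM in male 2 against 1464, 1242 and 1295 CPM in female 1, female 2 and male 1, a sample far from the others of its group. In the 52 kept endothelial nuclei the values were 3642 CPM against 4062, 3860 and 2496 CPM, and male 2 no longer stood apart. Without the mixed nuclei male 1 and male 2 stood at 3049 and 4158 CPM. Of 39 groups of 4 libraries looked at, this 1 was set apart in this way, and chance gives about 1 in 20.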

How the results depend on the processing

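Against other barcodes, the 1900 calls became 1062 with at least 20 UMIs per gene, 3858 in kept nuclei and 2982 in kept nuclei without mixed ones, and ranged from 1226 (without male 2) to 1824 with 1 library left out. Between the classes, the 153 calls became 431 with no filter, 420 with at least 20 UMIs, 99 with the gate at 5 UMIs and 631 in kept nuclei with at least 20 UMIs, and ranged from 60 to 258 with 1 library left out. By sex, no filter gave 51 vascular and 21 endothelial calls and kept endothelial nuclei 11, and leaving out 1 library gave 16 to 42 and 0 to 20, with the lone library of a sex assumed to vary like the other sex. With the replicate block, 0 vascular and 2 endothelial genes were called by sex. With no replicate block, 1709 genes were called against other barcodes and 157 between the classes. The replicate numbers are shared labels only. With 2 libraries per sex, the deviations of 1 pair of same-numbered libraries mirror those of the other. Their correlation of 0.17 is therefore 1 value and not 2 that agree. Direction turned for Inpp5d (0.33) and Slc1a2 (0.28) when barcodes with exclusion genes were left out of the others, and for Slc29a1 in kept nuclei (-1.31, and -0.99 without mixed ones). The female minus male mural share, -5.51 percentage points, ranged from -15.6 to 4.56 with 1 library left out. The cause of these changes was not tested. Depth limits the kept endothelial sum, 110466 UMIs, to levels above 27.2 CPM.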

Other observations

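The genes here were chosen after their values were seen. Ddc, the decarboxylase that makes dopamine and serotonin and an enzyme also known from brain capillaries, stood at 1544, 1832, 1229 and 968 CPM in kept endothelial nuclei (3303 CPM in male 1 without the mixed nucleus that gave 69.8% of its UMIs) and at 102, 102, 127 and 92.4 CPM in other barcodes. It was found in 38 of 52 kept endothelial nuclei (73.1%, or 46.4% thinned to 500 UMIs), in none of the 85 kept mural nuclei (at least 41.0-fold lower) and in 7.15% of other barcodes (2.02% thinned). Over all members the endothelial minus mural log2 difference of Ddc did not pass (3.78 ± 1.14, edgeR adjusted p = 0.055). Of its 52 UMIs in all mural nuclei, 50 lay in 1 nucleus. Pomc, the opioid and melanocortin precursor gene, stood at 325, 196, 192 and 545 CPM in kept endothelial nuclei (635 CPM in male 1 without that nucleus) and was found in 23 of 52 (44.2%), in no kept mural nucleus (at least 13.2-fold lower) and in 0.826% of other barcodes.

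In kept mural nuclei the glutamate receptor gene Grm3 stood at 3880, 3856, 3409 and 3030 CPM, above 1670, 2267, 1191 and 1596 CPM in other barcodes and 0, 0, 307 and 317 CPM in kept endothelial nuclei (0 in male 1 without that nucleus). Il34, a ligand of the receptor encoded by Csf1r, stood at 679, 997, 682 and 818 CPM against 6.35, 5.01, 8.74 and 7.29 CPM in other barcodes. The membrane protein gene Plxdc2 stood at 4414, 5451, 2192 and 3274 CPM in kept mural nuclei. Zfp385d, a zinc finger gene, stood at 1310, 1728, 877 and 1349 CPM there and at 0 in kept endothelial nuclei, at least 47.9-fold lower. Over all members the endothelial minus mural log2 difference passed for Zfp385d (-1.88 ± 0.49, edgeR adjusted p = 0.027). It did not pass for Grm3 (-1.18 ± 0.55, edgeR adjusted p = 0.24) or Plxdc2 (-1.80 ± 0.65, edgeR adjusted p = 0.12). Of 4321 haemoglobin UMIs (Hba-a1, Hba-a2, Hbb) in endothelial nuclei, 4252 (98.4%) lay in the male 1 nucleus of 18167 UMIs.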
